A study of Mus musculus with 6 samples.

Results

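The regulator of G protein signaling (Rgs) genes were followed in OT-I CD8+ T cells expanded ex vivo with or without the cytokines that give a tissue-resident memory T (TRM)-like phenotype. The members are 10 genes listed by symbol, Rgs1, Rgs2, Rgs3, Rgs10, Rgs11, Rgs12, Rgs14, Rgs16, Rgs18, and Rgs19, of the 57126 genes in the deposited table. All 10 were found and all 10 passed the filter on low counts. All cells came from lymph nodes and spleens of OT-I transgenic mice, whose T cell receptor recognizes an ovalbumin peptide, and were stimulated with nano-aAPCs, nanoparticles that carry peptide-loaded MHC class I and anti-CD28. The 3 samples called TEff were given IL-2 alone, and the 3 called TRM-like were given IL-15 and TGF-β beside IL-2. RNA was taken on day 6. The age and number of the mice are not given in the sources used here, nor is whether the replicates were separate cultures, so that the p-values measure the spread between these samples. IL-15 and TGF-β were added together, and their parts cannot be told apart.

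Rgs proteins speed up GTP hydrolysis by the α subunit of heterotrimeric G proteins and thereby shorten the signal that a G protein-coupled receptor sends into the cell. In lymphocytes many of these receptors are chemokine and lipid receptors that act through Gi, and Rgs1 is known for damping them and as a marker of tissue-resident T cells. The family is parted by protein structure into the R4 group of small proteins (Rgs1, Rgs2, Rgs3, Rgs16, Rgs18), the R12 group (Rgs10, Rgs12, Rgs14), the R7 group, whose proteins pair with the G protein subunit Gβ5 (Rgs11), and the RZ group (Rgs19).

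Between 18319013 and 23622621 reads per sample were counted on genes. TRM-like replicate 3 stood apart from its group, and TEff replicate 2 did so less widely. The study's methods mention a batch effect that was modelled, but which samples formed a batch is not given in the sources used here, so that its part in any result was not tested. A chi-square per gene, which is near 1 where counting noise alone parts a pair of samples, was 7.26 between TRM-like replicates 1 and 2 and 96.3 and 112 between each of them and replicate 3. It was 3.73 between TEff replicates 1 and 3 and 26.1 and 25.4 between each of them and TEff replicate 2. TRM-like replicate 3 was closer to TEff replicates 1 and 3 (41.9 and 37.4) than to its own group, and was at 82.4 from TEff replicate 2. TEff replicate 2 was at 54.3 and 68.9 from TRM-like replicates 1 and 2. TRM-like replicates 1 and 2 also held reads on genes that T cells are not known to use. Of 1546 olfactory and vomeronasal receptor genes, 61.8% and 65.5% had a count in these samples, against 2.98% to 3.56% in the other 4. The 95th percentile of those genes was at most 0.0791 CPM per kilobase (read counts relative to library size, divided by gene length), and the lowest Rgs member in any sample was at 0.354. The CD8 T cell markers Cd3e and Cd8a had at least 1801 counts in every sample, and Cd4 had at most 2.

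Of the 10 Rgs genes, Rgs18 and Rgs1 were higher in the TRM-like cells and none was lower. A gene was called when its adjusted p was below 0.05 (edgeR's quasi-likelihood test, Benjamini-Hochberg adjustment over all genes) and its absolute log2 fold change was above 0.58. Over the 26154 genes tested, 3.01% were called, 1.52% as higher and 1.48% as lower. In 5 members, Rgs1, Rgs10, Rgs11, Rgs12, and Rgs18, every TRM-like sample was above every TEff sample, and in none was every TRM-like sample below. Over all genes tested the groups did not overlap in 20.3%. The fitted log2 fold change was above 0 in 8 members, and the median of the 10 was 0.59, against 0.02 over all genes tested. As these are bulk samples, a change in the cells that express a gene and a change in its RNA per cell cannot be told apart. The count of called members was 5 without TRM-like replicate 3, where Rgs3, Rgs10, and Rgs16 joined Rgs1 and Rgs18, and it was 0 without TEff replicate 1 or TEff replicate 3 and 1 without any single one of the remaining samples.

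**Figure D1:**
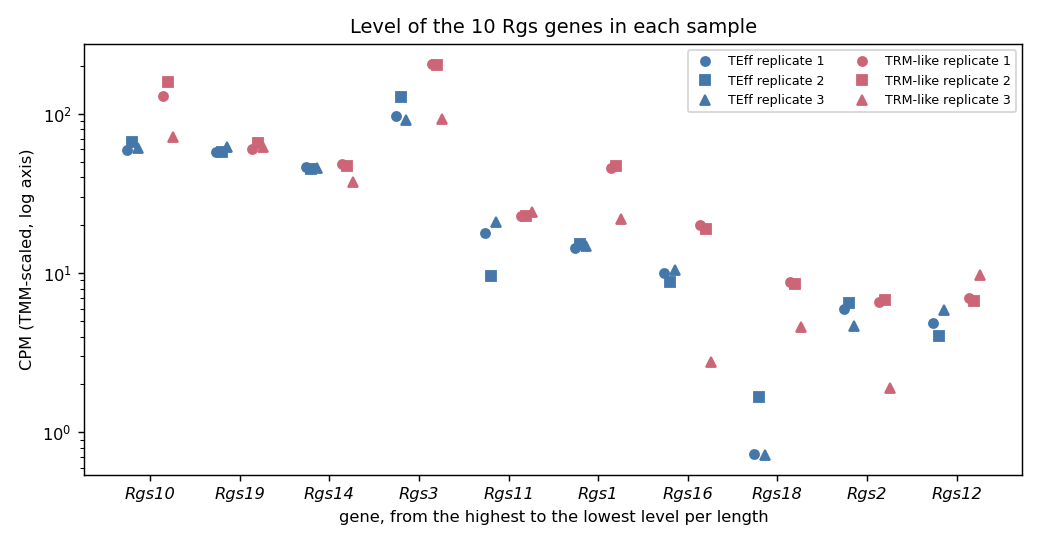
Level of the 10 Rgs genes in each of the 6 samples, as CPM scaled by edgeR's TMM method on a log axis, 1 point per sample and no error bars (blue, TEff; red, TRM-like; shape, replicate). For Rgs1, Rgs10, Rgs11, Rgs12, and Rgs18 the red points lie above all blue points, and for Rgs2, Rgs14, and Rgs16 the red triangle of TRM-like replicate 3 lies below them.

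Rgs18, an R4 protein best known from platelets and their precursors, had the largest fold change of the 10. It had 16, 33, and 13 counts in TEff replicates 1, 2, and 3 and 202, 197, and 99 counts in TRM-like replicates 1, 2, and 3. The lowest TRM-like sample was thus above the highest TEff sample. In TMM-scaled CPM the gene was at 1.04 ± 0.546 in the TEff cells and 7.33 ± 2.39 in the TRM-like cells (SD, n = 3). The log2 fold change was 2.81 (standard error 0.39, 95% interval 1.92 to 3.70, adjusted p = 0.00589 by edgeR), a 7.02-fold higher level. TRM-like replicate 3, in which few silent genes had reads, was at 4.39 times the TEff mean, and replicates 1 and 2 were at 8.47 and 8.28 times. Markers of megakaryocytes and platelets, the cells Rgs18 is known from, summed to 2.79 to 3.09 CPM in the TEff samples and 2.26 to 3.88 CPM in the TRM-like samples. Of these 6 markers, 2 (Itga2b and Gp1ba) passed the filter on low counts and neither was called, and the other 4 had at most 4 counts in any sample. Their defining marker Pf4 had 0 counts in every sample but TRM-like replicate 3, which had 2. The adjusted p of Rgs18 by edgeR was 0.0538 without TEff replicate 1 and 0.0526 without TEff replicate 3, and the log2 fold change with any 1 sample left out ran from 2.61 to 3.33.

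Rgs1 was the second called member. Its counts were 317, 302, and 269 in the TEff samples and 1053, 1083, and 474 in the TRM-like samples, so that the groups did not overlap. Relative to the TEff mean, TRM-like replicates 1 and 2 were at 3.09 and 3.18 times and replicate 3 was at 1.47 times. The fitted change was 2.58-fold, with a 95% interval of 0.76 to 1.97 on the log2 scale (adjusted p = 0.0282 by edgeR). The size of the change held with any 1 sample left out (log2 fold change 1.18 to 1.64). Its adjusted p by edgeR was below 0.05 in only 1 of those 6 fits, the one without TRM-like replicate 3, where it was 3.44e-07, and was 0.0843 to 0.161 in the others.

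Rgs2 and Rgs16, R4 genes known to be induced when T cells are activated, differed among the TRM-like samples themselves. Rgs16 had 218, 175, and 189 counts in the TEff samples and 462, 433, and 60 in the TRM-like samples. TRM-like replicates 1 and 2 were thus at 2.07 and 1.94 times the TEff mean in CPM, and replicate 3 was at 0.284 times, the lowest of all 6 samples. Across the group the log2 fold change was 0.52, with a 95% interval of -0.73 to 1.76 (adjusted p = 0.731 by edgeR). Without TRM-like replicate 3 it was 0.99 (adjusted p = 0.000157 by edgeR). Rgs2 had 130, 129, and 84 counts in the TEff samples and 151, 155, and 41 in the TRM-like samples. Again replicate 3 was the lowest sample, at 0.331 times the TEff mean, while replicates 1 and 2 were at 1.15 and 1.19 times. The 95% interval of the Rgs2 log2 fold change ran from -1.09 to 0.76, and the fitted value without TRM-like replicate 3 was above 0, at 0.21 (adjusted p = 0.451 by edgeR).

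Rgs3, the remaining R4 gene, whose protein can also bind Gβγ, showed the same split between the TRM-like samples. Replicate 3 did not fall below every TEff sample here. The gene lies at chr4:62478084-62622238 on the plus strand. It had 2133, 2518, and 1650 counts in the TEff samples and 4761, 4664, and 2016 in the TRM-like samples. In CPM, TRM-like replicate 3 at 93.0 lay within the 91.2 to 128 of the TEff samples, at 0.882 times their mean. TRM-like replicates 1 and 2 lay above the TEff samples at 208 and 204. The log2 fold change was 0.67 (95% interval 0.02 to 1.32, adjusted p = 0.318 by edgeR), and without TRM-like replicate 3 it was 0.96 (adjusted p = 0.000261 by edgeR).

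**Figure D2:**
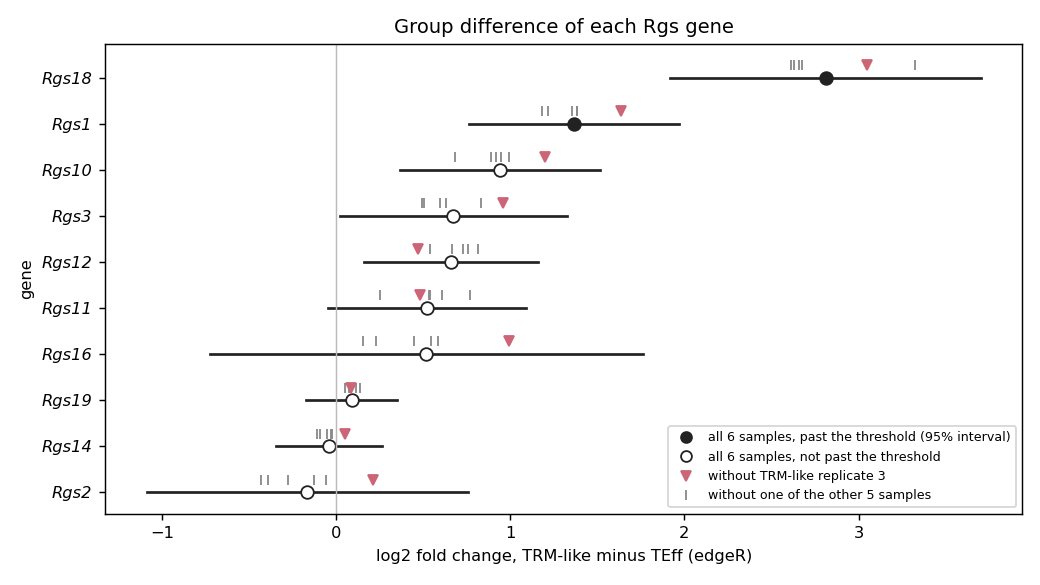
Log2 fold change of each Rgs gene between the TRM-like and the TEff cells from edgeR, with its 95% interval (horizontal line; filled circle, past the threshold; open circle, not past it), and the value with 1 sample left out (red triangle, without TRM-like replicate 3; grey tick, without one of the other 5). Leaving out TRM-like replicate 3 moved Rgs16 from 0.52 to 0.99 and Rgs2 from -0.17 to 0.21, whereas Rgs19 stayed between 0.05 and 0.14.

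Of the 10 members, 4 lie on chromosome 1, and 3 of those, Rgs2, Rgs1, and Rgs18, stand in a run of 5 Rgs genes with no other protein-coding gene between them, in the order Rgs2, Rgs13, Rgs1, Rgs21, Rgs18 over 776.1 kilobases and all on the minus strand. In GRCm39, Rgs2 (ENSMUSG00000026360) lies at chr1:143875076-143879899, Rgs1 (ENSMUSG00000026358) at chr1:144118034-144124980, and Rgs18 (ENSMUSG00000026357) at chr1:144628291-144651189. Of the 5 genes, Rgs13 and Rgs21 did not pass the filter on low counts. No fold changes were compared between the others. Rgs1 and Rgs18, whose starts are 526.2 kilobases apart, were called. Rgs2, whose start is 245.1 kilobases from that of Rgs1 on the other side, was not. Rgs13, between Rgs2 and Rgs1, had 4 counts in TRM-like replicate 1 and 0 in the other 5 samples, and Rgs21, between Rgs1 and Rgs18, had 1 count in each of TRM-like replicates 2 and 3 and 0 in the other 4. Rgs16 (ENSMUSG00000026475) lies farther along the same chromosome on the plus strand, at chr1:153616091-153621228, and shares 440 exonic bases on the opposite strand with Gm28513, which had 1 to 13 counts.

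**Figure D3:**
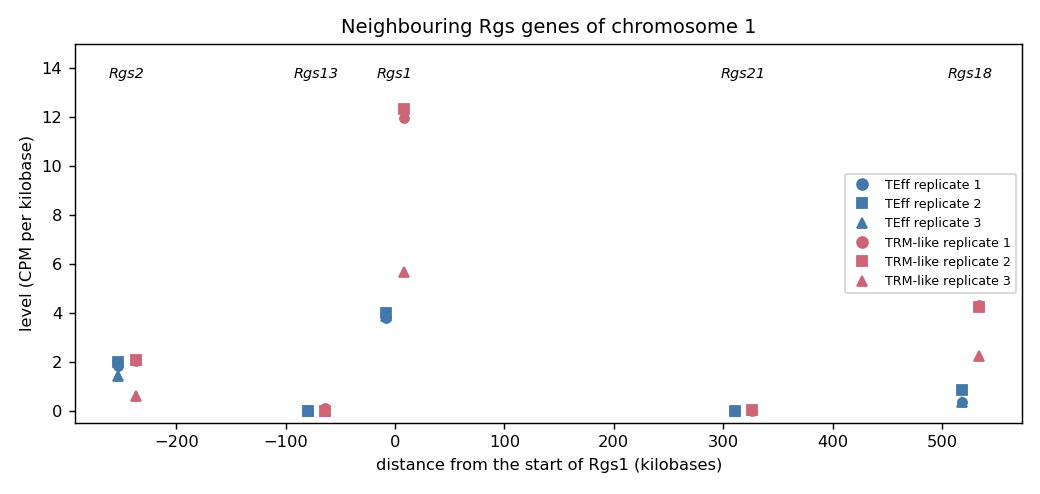
Level per length (CPM per kilobase, linear axis) of the 5 neighbouring Rgs genes of chromosome 1 in each sample, against the distance of each gene's start from that of Rgs1 in kilobases. Blue (TEff) and red (TRM-like) points are set 8 kilobases to either side of the gene's place, shapes give the replicate, and Rgs1 and Rgs18 have all red points above the blue ones, while Rgs13 and Rgs21 lie near 0.

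Rgs1 and Rgs18, the called members, and Rgs2, their neighbour that was not called, share a stretch of chromosome. The 250 bases before the start of each are therefore shown. They were read from GRCm39 on the minus strand, at chr1:144124981-144125230 for Rgs1, chr1:144651190-144651439 for Rgs18, and chr1:143879900-143880149 for Rgs2, before the start of the GENCODE canonical transcript. Capitals mark CAGACA, a SMAD-binding element with its flank, which stands on the opposite strand in Rgs1 and was not found in the other 2.
Rgs1: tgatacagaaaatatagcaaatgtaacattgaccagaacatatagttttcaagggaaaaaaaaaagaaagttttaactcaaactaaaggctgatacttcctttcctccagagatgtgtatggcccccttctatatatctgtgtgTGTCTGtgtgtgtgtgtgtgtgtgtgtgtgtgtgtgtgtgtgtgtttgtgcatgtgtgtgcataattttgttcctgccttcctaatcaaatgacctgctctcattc
Rgs18: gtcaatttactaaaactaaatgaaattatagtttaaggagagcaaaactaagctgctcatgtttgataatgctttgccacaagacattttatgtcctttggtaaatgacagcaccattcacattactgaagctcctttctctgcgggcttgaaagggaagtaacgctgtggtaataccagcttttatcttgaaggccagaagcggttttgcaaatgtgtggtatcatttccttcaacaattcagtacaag
Rgs2: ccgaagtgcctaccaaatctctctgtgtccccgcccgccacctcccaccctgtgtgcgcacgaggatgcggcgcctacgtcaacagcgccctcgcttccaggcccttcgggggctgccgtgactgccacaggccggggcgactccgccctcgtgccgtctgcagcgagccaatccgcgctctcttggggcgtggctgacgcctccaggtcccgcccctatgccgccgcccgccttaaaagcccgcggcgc

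The window searched ran from 250 bases before to 50 bases after the start, on both strands. CAGACA was found for 4 of the 10 members (Rgs1, Rgs10, Rgs14, and Rgs16) and in 18.9% of the same windows of 21770 protein-coding genes. In Rgs1 the match begins 106 bases before the start, beside a run of GT repeats. The SMAD palindrome GTCTAGAC was found for 0 members and in 0.266% of all windows, the cyclic AMP response element TGACGTCA for 0 members and in 2.44%, and the AP-1 motif TGANTCA for 0 members and in 7.14%. Members with CAGACA included both called Rgs1 and Rgs14, which was not called.

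In the R12 group, Rgs10, a small protein that acts on Gi and whose gene lies at chr7:127975345-128020482 on the minus strand, had 1301, 1317, and 1113 counts in the TEff samples and 2969, 3648, and 1557 in the TRM-like samples. The groups did not overlap in CPM, at 59.5 to 66.7 in the TEff cells and 71.8 to 159 in the TRM-like cells. The log2 fold change of 0.94 (standard error 0.25, 95% interval 0.37 to 1.52) was not past the threshold (adjusted p = 0.0997 by edgeR). DESeq2 gave 0.96 (adjusted p = 0.0126), and the edgeR fit without TRM-like replicate 3 gave 1.20 (adjusted p = 1.04e-05).

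Rgs12 and Rgs14 are larger R12 proteins that also bind Ras and the inactive α subunit of Gi. Their genes lie at chr5:35106715-35196988 and chr13:55517258-55535857, both on the plus strand. Rgs12 had 107, 80, and 106 counts in the TEff samples and 161, 153, and 210 in the TRM-like samples. TRM-like replicate 3 was the highest of the 6 samples for this gene, at 1.96 times the TEff mean. For every R4 gene, and for the R12 genes Rgs10 and Rgs14, it was the lowest of the 3 TRM-like samples. In Rgs12 the groups did not overlap, and the log2 fold change was 0.66 (95% interval 0.16 to 1.16, adjusted p = 0.197 by edgeR). Rgs14 was at 46.2, 45.1, and 45.6 CPM in the TEff samples and 48.3, 46.9, and 37.6 CPM in the TRM-like samples. The spread among the TRM-like samples was thus wider than the difference between the groups. The 95% interval of its log2 fold change was -0.35 to 0.26 (adjusted p = 0.920 by edgeR).

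Rgs11, the R7 member at chr17:26421904-26430829 on the plus strand, had 393, 190, and 381 counts in the TEff samples and 522, 521, and 526 in the TRM-like samples. Here the TRM-like samples lay close together, at 23.3 ± 0.861 CPM, and the TEff samples were spread, at 16.2 ± 5.92 CPM (SD, n = 3), with replicate 2 the lowest. The log2 fold change was 0.52 (95% interval -0.05 to 1.09, adjusted p = 0.387 by edgeR), and without TEff replicate 2 it was 0.25. Rgs11 shares 138 exonic bases with Arhgdig and 39 with Fam234a on the opposite strand, and the strand setting of the counting is not given in the sources used here. Arhgdig had 39 to 106 counts in the TEff samples and 12 to 116 in the TRM-like samples, and its part in the Rgs11 counts was not tested. Gnb5, which encodes the Gβ5 partner of R7 proteins, was lower with a log2 fold change of -0.94 (adjusted p = 0.0369 by edgeR), going from 5.12 to 6.63 CPM in the TEff samples to 2.97 to 3.23 CPM in the TRM-like samples.

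Rgs19, the RZ member, also called Gα-interacting protein, had the narrowest range of CPM over the 6 samples relative to its level. It lies at chr2:181330212-181335997 on the minus strand. It had 1256, 1145, and 1117 counts in the TEff samples and 1387, 1503, and 1348 in the TRM-like samples. In CPM the groups were at 59.0 ± 2.34 and 62.8 ± 2.64 (SD, n = 3) and overlapped. The 95% interval of the log2 fold change, -0.18 to 0.35 (adjusted p = 0.789 by edgeR), lies within the fold used as the threshold. Rgs19 shares 449 exonic bases with Tcea2 on the opposite strand, which had 136 to 217 counts, and its part in the Rgs19 counts was not tested.

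Per kilobase of gene length, Rgs10 was the highest member in every sample, at 54.9 ± 3.25 CPM per kilobase in the TEff cells and 105.5 ± 39.1 in the TRM-like cells (SD, n = 3). In the TEff cells it was followed by Rgs19 at 27.6, Rgs14 at 19.4, Rgs3 at 12.8, Rgs11 at 8.07, Rgs16 at 4.17, Rgs1 at 3.88, Rgs2 at 1.75, Rgs12 at 0.749, and Rgs18 at 0.512, all as mean CPM per kilobase. The ranges of neighbours overlapped only between Rgs16 and Rgs1 and between Rgs12 and Rgs18. In the TRM-like cells the order was Rgs10, Rgs19, Rgs3, Rgs14, Rgs11, Rgs1, Rgs16, Rgs18, Rgs2, and Rgs12. Rgs18 thus went from the lowest place to the eighth, at 3.61 ± 1.18 CPM per kilobase, and Rgs1 from the seventh to the sixth, at 9.99 ± 3.73. Of the neighbours in this order, Rgs3 and Rgs14, Rgs11 and Rgs1, Rgs1 and Rgs16, Rgs16 and Rgs18, and Rgs2 and Rgs12 overlapped. Both orders rest on the deposited gene lengths. These were 2356 bases for Rgs14, 2010 for Rgs11, 3841 for Rgs1, and 1140 for Rgs10. Exons in GENCODE M39 cover 8749, 5138, 6947, and 2228 bases, in the same order. For Rgs3 the lengths are closer, at 8260 deposited and 10860 in M39. Under the M39 lengths Rgs14 would thus stand below Rgs3 in the TEff cells. The rest of the order, and the summed level and its shares, were not tested under those lengths.

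The summed level of the 10 members was 130, 136, and 135 CPM per kilobase in TEff replicates 1, 2, and 3. It was 227 and 254 in TRM-like replicates 1 and 2 and 143 in replicate 3. Rgs10 took 40.0% to 43.0% of the sum in the TEff samples and 44.2% to 55.0% in the TRM-like samples, and the called genes Rgs1 and Rgs18 took at most 5.27% and 1.91% of it in any sample.

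**Figure D4:**
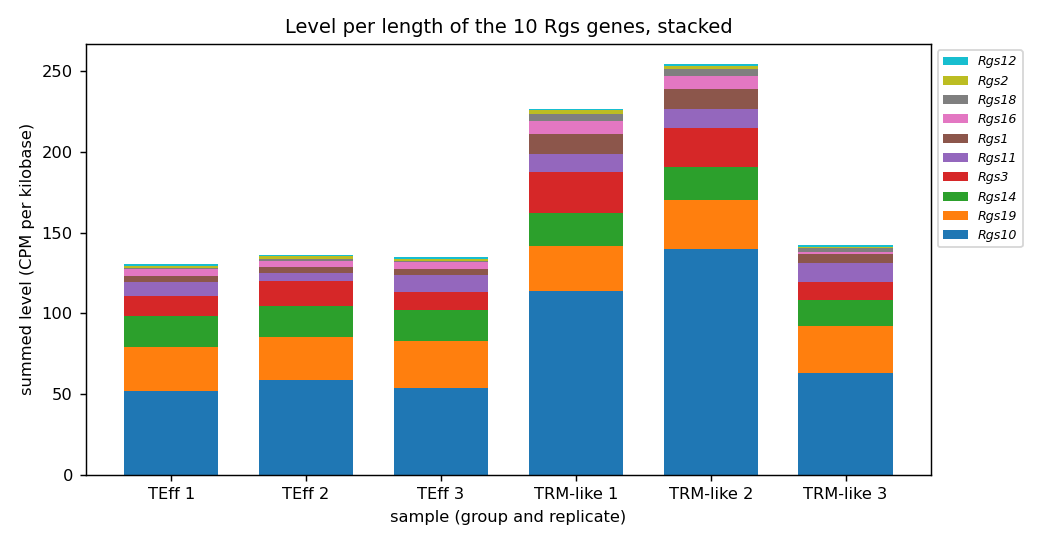
Level per length of the 10 Rgs genes (CPM per kilobase, linear axis from 0), stacked for each of the 6 samples, with 1 colour per gene and no error bars. The bars of TRM-like replicates 1 and 2 reach 227 and 254, that of TRM-like replicate 3 reaches 143, and those of the TEff samples reach 130 to 136, with Rgs10 the largest block in each.

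TRM-like replicate 3 was above all TEff samples for 6 members (Rgs1, Rgs10, Rgs11, Rgs12, Rgs18, and Rgs19), within their range for Rgs3, and below all of them for 3 (Rgs2, Rgs14, and Rgs16). The mean of TRM-like replicates 1 and 2 was at least 1.91 times replicate 3 for Rgs1, Rgs2, Rgs3, Rgs10, Rgs16, and Rgs18, with the widest gap, 7.06 times, for Rgs16. For Rgs11, Rgs14, and Rgs19 the ratio of that mean to replicate 3 was 0.939, 1.27, and 1.02, and for Rgs12 it was 0.708.

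The genes whose log2 CPM followed Rgs1 most closely over the 6 samples were Zcchc24, Kctd11, and Apol7b, with Pearson's r of 1.000, 0.998, and 0.998. For Rgs18 they were Sfn, Mvb12b, and Gbp6, with r of 0.999, 0.997, and 0.997. The 6 points of every gene come from the same libraries and groups. Of 14821 genes compared, 475 had r above 0.95 with Rgs1 and 293 with Rgs18.

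The other 12 genes of the Rgs name had at most 29 counts in any sample, and 8 of them had 0 in all 3 TEff samples. Together with the G protein-coupled receptor kinases (Grk), axins, sorting nexins, and other proteins that carry an RGS-type domain, they form a list of 27 genes, of which 19 were tested. Of these, 0 were called by edgeR and DESeq2 called 1, where over all genes tested they called 786 and 1256. An unadjusted p under 0.05 was found by edgeR for 6 of the 19 and for 3871 of all 26154 genes. Their median log2 fold change was 0.02. The highest in level were Grk2 (116 CPM per kilobase in the TEff cells and 88.0 in the TRM-like cells) and Grk6 (90.0 and 107), kinases that mark active receptors for arrestin binding.

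Among 34 tested genes of G protein subunits, arrestins, and other regulators, 5 (14.7%) were called, 3 higher and 2 lower. Their median log2 fold change was 0.07. Over all genes tested 3.01% were called. The list was written with earlier results of these data known and does not hold every G protein subunit. Its share depends on that choice. Gngt2, which encodes a γ subunit and is outside the list, was called higher (log2 fold change 2.99, adjusted p = 0.000592 by edgeR). Arrb1 and Arrb2, which encode the β-arrestins that uncouple receptors from G proteins, rose by 1.01 and 0.67 on the log2 scale (adjusted p = 0.0154 and 0.0308 by edgeR). Arrb1 was at 39.7 to 60.6 CPM in the TEff samples and 104 to 110 CPM in the TRM-like samples. Gna12, which encodes the α subunit of G12, rose by 1.67 (adjusted p = 0.00366 by edgeR), from 13.2 to 15.9 CPM to 31.8 to 55.2 CPM. Gna15, an α subunit of the Gq class, fell by 1.21 (adjusted p = 0.00444 by edgeR), and the fifth called gene was Gnb5. The Gi subunit Gnai2, the substrate that most members are known to share, was the highest of the list at 130 ± 4.40 CPM per kilobase in the TEff cells and 144 ± 9.04 in the TRM-like cells (SD, n = 3), and Gnb2 was at 84.1 and 94.6. Neither was called. Without TRM-like replicate 3, 8 genes of the list were called, and with each of the other 5 samples left out 2 to 3 were.

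Of 31 tested lymphocyte receptors, most of which signal through Gi, 15 (48.4%) were called, 5 higher and 10 lower, and the median log2 fold change was -0.46. Over all genes tested 1.52% were called higher and 1.48% lower. Without TRM-like replicate 3, 20 of the listed receptors were called, and with each of the other 5 samples left out 10 to 11 were. These receptors were chosen with earlier results of these data known and do not include every such receptor, so that their share depends on that choice. Those lower were the chemokine receptors Ccr2, Ccr4, Ccr10, Cxcr3, and Cxcr4, the sphingosine-1-phosphate receptors S1pr1 and S1pr4, the oxysterol receptor Gpr183, the leukotriene receptor Ltb4r1, and the ADP receptor P2ry12. Of these 10, Ccr2 had the largest fall, with a log2 fold change of -4.47 (adjusted p = 0.00445 by edgeR), from 184 to 336 CPM in the TEff samples to 2.63 to 15.7 CPM in the TRM-like samples. Those higher were Ccr8, Cx3cr1, Gpr15, Gpr34, and the adenosine receptor Adora3. Gpr15, a receptor known for homing to the colon, was at 0.332 to 1.01 CPM in the TEff samples and at 14.7, 17.3, and 45.4 CPM in the TRM-like samples, with replicate 3 the highest. By the average of both groups' levels per length, the highest receptors were Cxcr6 (168 CPM per kilobase in the TEff cells and 224 in the TRM-like cells) and Cxcr3 (76.2 and 32.9), followed by Gpr18 (35.0 and 41.8), and of these Cxcr3 was called. The 10 receptors that fell and the 2 Rgs genes that rose come from the same 6 samples, and no relation between them was tested.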

How the data were processed

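RNA from 6 samples (3 TEff, 3 TRM-like, grouped by their titles) was made into libraries with a stranded total RNA kit. The authors trimmed reads with cutadapt 4.8, mapped and counted them with Rsubread against GRCm39, and the deposited values are raw counts with a length for each gene. The treatment of multi-mapped reads is not given in the sources used here.

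Symbols and coordinates came from GENCODE M39 of the same build, a later release than the authors', which held 56620 of the 57126 genes. Gene lengths are the deposited ones. The 26154 genes detected (1 count or more) in 3 samples or more were tested with edgeR 4.0.16 in R 4.3.3 (glmQLFit and glmQLFTest, TMM scaling, Benjamini-Hochberg adjustment over all of them) with the threshold given with the first counts. Standard errors are the log2 fold change over the square root of F, and 95% intervals use the degrees of freedom of that test. Log2 CPM for correlations used a prior count of 2. Counts were simulated for this comparison (25304 genes, 200 changed 4-fold). The changed genes were drawn only from those with a mean of at least 10 counts. There edgeR recovered 92.5% with 3.14% false calls. These rates are for 4-fold changes in simulated counts only, and recovery of genes with fewer counts was not tested. Whether they hold for smaller changes, such as the 2.58-fold of Rgs1, was not tested. Whether they hold where a sample stands apart from its group, as TRM-like replicate 3 did, was not tested either.

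The alternatives were DESeq2 1.42.0, limma-voom (limma 3.58.1), DESeq2's size factors, library totals, filterByExpr, a minimum of 10 counts per sample, all genes unfiltered, a threshold on adjusted p only, the replicate number as a block, each sample left out, TPM for the order of levels, and rank correlation. The block together with the minimum of 10 counts was chosen after the data were seen. The members and gene lists were chosen with earlier results of these data known. Named were all members, called list genes (some by symbol alone), the 3 list genes of highest level per length averaged over both groups, and the 3 genes most like each called member. Of those, 1 list gene is not reported here.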

Additional observations from a re-analysis of the deposited data

How the results depend on the processing

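The count of called Rgs genes, 2 in the fit reported, was 1 with limma-voom (Rgs18), 4 with no filter, 6 with the replicate number as a block, and 0 to 5 with each sample left out, lowest without TEff replicate 1 or 3 and highest without TRM-like replicate 3. Called members were higher in the TRM-like cells in each of these fits. All genes called, 786, became 1256 with DESeq2, 1868 with no filter, 2034 with the block, and 263 to 3579 with each sample left out. The fits with no filter and with the block took infinite prior degrees of freedom, so that each gene's variance came from the trend, and with no filter the median log2 fold change over all genes was 0.38. The other genes with an RGS-type domain, 0 called, became 1 with DESeq2, 1 with no filter, 2 with the block, and 0 to 3 with each sample left out. The G protein list gave 2 to 8 with each sample left out, and the receptor list, 15 called, gave 10 to 20. The receptor list gave 7 where 10 counts were required per sample, which leaves fewer genes tested. By rank correlation, 139 genes for Rgs1 and 72 for Rgs18 were above 0.95, where 6 samples allow only a value of 1.

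Same-numbered samples had correlations of -0.292, 0.309, and 0.389 in their deviations from the group means, which do not show that the numbers pair the samples. With the block and that minimum, 3 Rgs genes were called, Rgs10 with them. Rgs14 and Rgs2 changed sign in 1 setting each, without TRM-like replicate 3, and with each sample left out ran from -0.11 to 0.052 and from -0.43 to 0.21. Rgs1 lost the call in 6 of 15 settings and Rgs18 in 2, and Rgs19 was called in none. The order of levels was the same in TPM. As TPM uses the same counts and lengths and differs within a sample only by a common factor, it could hardly change the order. With 13 to 33 counts in the TEff samples, the Rgs18 TEff level rests on the fewest counts of the members.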
